A study of Drosophila melanogaster with 4 samples.

Results

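The regions described here are the stretches of 5 heterochromatic scaffolds of the Drosophila melanogaster genome that were called enriched after chromatin immunoprecipitation (ChIP) with an antibody to the histone variant H2Av. They were chosen by position alone. They are the enriched regions on 2LHet, 3LHet, 3RHet, XHet and YHet in the authors' list for the replicate set, and they number 252 of the 6065 enriched regions of that list. Of these, 163 lay on 3LHet, 52 on 3RHet, 17 on 2LHet, 13 on XHet and 7 on YHet. The same scaffolds held 162 regions in the list of ChIP replicate 1 and 168 in that of ChIP replicate 2.

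The series holds 4 libraries, 2 of ChIP DNA and 2 of input DNA, from S2-DRSC cells, a male line cultured from late embryos. All of the cells had been treated with double-stranded RNA against H2Av (gene CG5499, symbol His2Av), first with 50 µg and, after about 4 days of growth, again with 200 µg. The antibody, number 9751, is a rabbit polyclonal raised against a peptide. Cells without the RNA interference were not analysed here, so every value belongs to treated cells of 1 line, and the amount of H2Av left in them was not measured here.

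H2Av is the only H2A variant of the fly and does the work that H2A.Z and H2A.X share out in other animals, at gene starts and at broken DNA. In flies it also takes part in the formation of heterochromatin, the compact, repeat-rich chromatin around centromeres and along the Y, where HP1 and methylated histone H3 gather. The scaffolds named Het are the pieces of that chromatin which release 5 of the genome could assign to a chromosome but did not join to its arm, and reads from repeats can fit many places in them. No mark of heterochromatin was measured here, so the name rests on the scaffolds alone.

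The lists hold positions and scores but no counts, so read depth is unknown and no counting interval can be placed on a single region. The mappable part of each scaffold is likewise unknown. Whether the replicates came from separate cultures is not said in the labels, and their spread may thus be technical. The score is the authors' own value for each region, on a scale that is not given in the sources used here, and it serves only to describe and rank. For comparison, the arms X, 2L, 3L and 3R were treated together and held 4272 regions of the replicate-set list. With 2 replicates, an exact sign-flip permutation test of the difference between scaffolds and arms, two-sided, cannot give a p below 0.5, so differences are given per replicate with their spread and none of them is called.

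With the 5 scaffolds pooled, more of their length lay in long stretches without a region than on the arms, although on 3LHet, which held most of the regions, less did. Of 118 complete windows of 50 kb, 63 (53.4%) held no region in either replicate, against 673 of 1956 (34.4%) on the arms. The most covered 20% of the windows, 24 of them, carried 79.2% of the covered sequence in replicate 1 and 78.1% in replicate 2. On the arms the most covered 20% carried 58.5% and 58.6%. Stretches of 50 kb or more without a region made up 67.4% ± 0.439 of the scaffolds (SD, n = 2) and 57.4% ± 0.224 of the arms (SD, n = 2). The difference, 9.84 percentage points in replicate 1 and 10.1 in replicate 2, was larger than the spread between replicates. The scaffolds did not all share this order. On 3RHet such stretches made up 83.7% in replicate 1 and 83.4% in replicate 2, whereas on 3LHet they made up 46.5% and 50.7%, below the arms. Empty windows on 3LHet were 31.4% and 35.3%, against 35.9% and 35.6% on the arms, and its most covered 20% of windows carried 55.1% and 56.1% of its cover.

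Counted over full length, the scaffolds held fewer regions than the arms, and outside the long stretches the replicates gave similar numbers for both. Over full length the density was 27.5 ± 0.708 regions per Mb on the scaffolds and 37.0 ± 0.260 on the arms (SD, n = 2 each), a ratio of 0.743 ± 0.0139. With stretches of 50 kb or more left out of both, a calculation chosen after the values were seen, the density was 84.4 ± 3.31 and 86.9 ± 1.07 regions per Mb (SD, n = 2 each), a ratio of 0.971 ± 0.0261. In the replicate-set list the order turned, with 107.6 regions per Mb on the scaffolds and 91.2 on the arms. The percent covered outside those stretches was 35.2% ± 1.21 on the scaffolds and 43.2% ± 0.422 on the arms (SD, n = 2 each). The full-length ratio rested on which scaffolds were counted, being 0.998 without 3RHet and 0.436 without 3LHet. On 3LHet the full-length density was 41.5 and 44.2 regions per Mb in the 2 replicates, and on XHet 53.9 and 39.2. Both lay above the arms, with 36.9 and 37.2, while 3RHet, 2LHet and YHet lay below them.

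3RHet had the longest stretch without a region. With each scaffold divided into 10 equal parts, parts 1 to 6 of 3RHet held no region in either replicate, and its first replicate region began at 1610785 in replicate 1 and at 1532908 in replicate 2. The replicate-set list added a single region there, at 89278 to 90462, which was 1185 bp wide and was followed by 1442.1 kb without another. From 1608820 to 1936756, a span of 327.9 kb or 13.0% of the scaffold, came 36 of its 52 regions. In replicate 1 that block held 29 of 37 regions and ended at 1936680, and in replicate 2 it held 25 of 36 and ended at 1936720. The 3 lists thus placed the far edge of the block at nearly the same base. Behind it came 435.6 kb without a region in the replicate-set list, then 2 regions at 2372374 to 2381398, then 52.1 kb without one, and last a block of 12 regions that ran to the end of the scaffold.

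3LHet carried regions in each of its parts, and in the replicates parts 3 and 9 were covered the most. Part 3 of its 10 equal parts, 511099 to 766647, was covered to 52.0% in replicate 1 and 47.6% in replicate 2. Part 9 reached 30.8% and 30.0%, whereas part 5 was covered to 0.761% and 0.707%. Part 2, covered to 24.8% and 24.3%, held more regions than part 9, with 19 and 24 against 13 in each replicate. Both replicates had no region in nearly the same stretch in the middle. It was 1059554 to 1326823 in replicate 1 and 1059525 to 1326959 in the other. In the replicate-set list 4 regions stood inside that stretch, at 1129474 to 1147922. The longest stretch of the scaffold without a region began at 1834698 in replicate 1 (269.3 kb) and at 1839869 in replicate 2 (277.7 kb). In the replicate set it began at 1847163 (252.8 kb). The most covered 50 kb window, 700001 to 750000, was covered to 73.2% in replicate 1 and 64.4% in replicate 2.

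On the 3 short scaffolds the regions sat in 1 or 2 groups. XHet, 204112 bp long, had all its regions between 16664 and 126548, and parts 8 to 10 of it held no region in any list. The window at 50001 to 100000 was covered to 71.8% in replicate 1 and 58.3% in replicate 2. 2LHet had a group of 9 regions at 2288 to 57874 and a group of 8 at 152442 to 200280, and its last 168.6 kb, which is 45.7% of its length, held none in any list. YHet held no region in its first 214301 bp in the replicate-set list and in replicate 2. In replicate 1 it held none in its first 312637 bp. The most covered window of YHet, 200001 to 250000, was empty in replicate 1 and covered to 4.05% in replicate 2; the group of 3 regions described below lies past the last complete window.

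**Figure D1:**
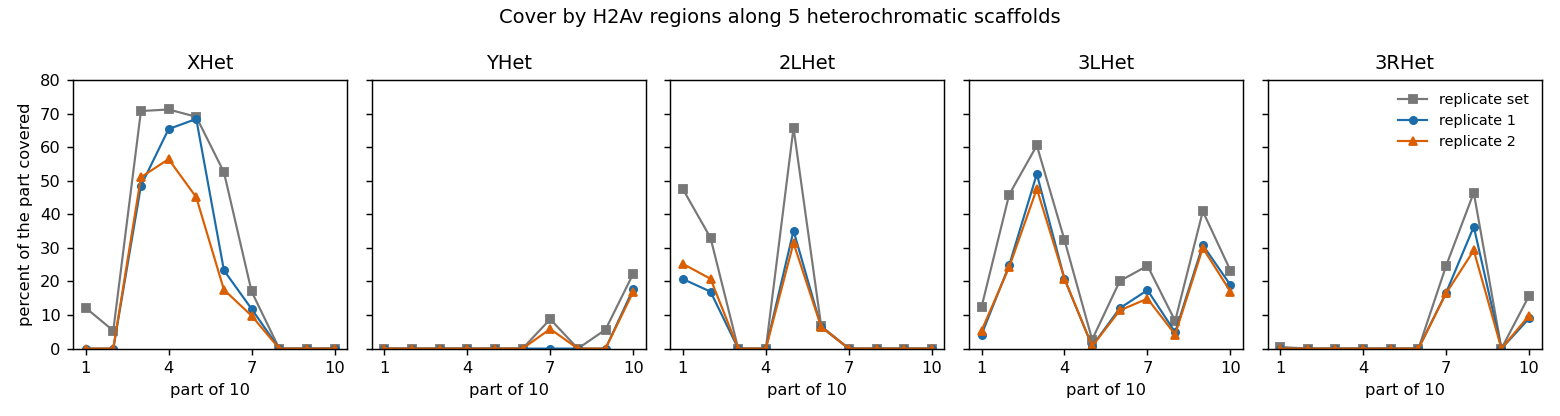
Percent covered by enriched regions (vertical axis) in each of 10 equal parts of the 5 scaffolds, in order of position (horizontal axis), for replicate 1, replicate 2 and the replicate-set list. The 2 replicates broadly follow each other, and differ most in part 5 of XHet (68.4% and 45.1%). On XHet the peak lies in part 5 in replicate 1 (68.4%) and in part 4 in replicate 2 (56.4%). Both replicates peak in part 3 of 3LHet (52.0% and 47.6%) and part 8 of 3RHet (36.3% and 29.2%). Parts 1 to 6 of 3RHet are empty in both.

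Most regions on the scaffolds were narrow, while a small number of broad ones carried much of the cover. The median width was 2590 bp in replicate 1 and 2202 bp in replicate 2, against 3767 and 3675 bp on the arms. The difference, scaffolds minus arms, was -1177 bp in replicate 1 and -1473 bp in replicate 2, beyond the replicate spread of 274 bp on the scaffolds (SD, n = 2). For the share of regions of 10 kb or more the order was the other way round. Regions of 10 kb or more made up 12.3% and 11.3% of the scaffold regions in the 2 replicates and 9.04% and 8.78% of the arm regions. They held 38.6% ± 2.14 of the covered sequence on the scaffolds and 27.4% ± 0.416 on the arms (SD, n = 2 each). In the replicate-set list the share of such broad regions was 10.3% on the scaffolds and 11.2% on the arms, so the order of the shares turned there. The widest region was narrower on the scaffolds in every list. It measured 31792 and 25625 bp in the replicates, against 52244 and 40586 bp on the arms. The arms held more regions, 3608 and 3644 in the replicates against 162 and 168. A larger set tends to have a larger maximum, so no order in width is read from the widest region.

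The replicate-set list held 26 regions of 10 kb or more on the scaffolds, 17 of them on 3LHet, 5 on 3RHet, 2 on XHet, 2 on 2LHet and none on YHet. Every one of the 26 overlapped both replicates, as did all 477 regions of that width on the arms. Together the 26 made up 40.5% of the cover of the 252 regions. The widest was 32591 bp, at 679846 to 712436 on 3LHet with a score of 1.28. Replicate 1 had a single region there, from 679982 to 711773 with a score of 1.28, and replicate 2 had 2, from 681353 to 686129 and from 686618 to 712242, scored 1.03 and 1.32. The widest on 3RHet, 23665 bp at 1897274 to 1920938, was split into 3 regions in each replicate. The widest on XHet, 18291 bp at 73142 to 91432, took up 3 regions of replicate 1 and 2 of replicate 2, while the widest on 2LHet, 13209 bp at 162928 to 176136, was a single region in both. Of the 105 scaffold regions present in both replicates, 73 met a single region in each and 32 met more than 1 in at least one of them.

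Gaps between neighbours had no steady order against the arms in the middle of their range. The median gap was 3953 bp in replicate 1 and 4777 bp in replicate 2 on the scaffolds, against 4008 and 3979 bp on the arms. The scaffold value lay below that of the arms in the first replicate and above it in the second, so no order can be given. Relative to the mean gap the spread was wider on the scaffolds. The SD was 3.01 and 2.68 times the mean in the 2 replicates, against 2.25 in both replicates on the arms. The quartiles in bp lay closer together on the scaffolds. They were 1359 and 12822 bp in replicate 1 and 1769 and 12662.5 bp in replicate 2. On the arms they were 1251.75 and 15844.2 bp, and 1301 and 15715.2 bp.

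**Figure D2:**
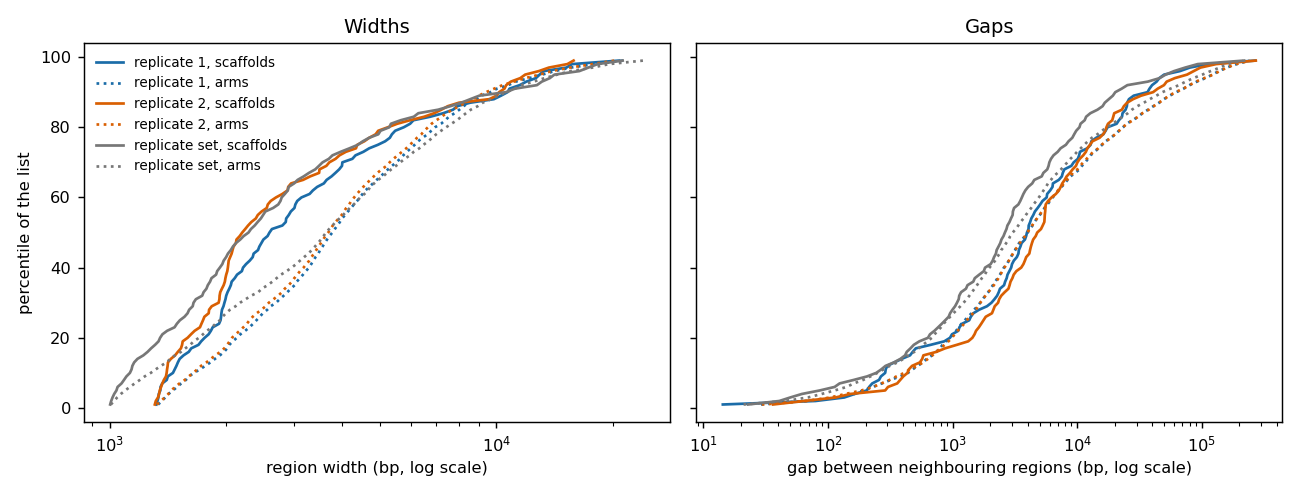
Percentiles 1 to 99 (vertical axis) of region width in bp and of the gap between neighbouring regions in bp (horizontal axes, log scale), for the 5 scaffolds (solid) and the arms X, 2L, 3L and 3R (dotted) in each list. Scaffold widths lie to the left of arm widths at the median (2590 and 2202 bp against 3767 and 3675 bp in the replicates). At percentile 90 they lie to the right in the replicates (10691.8 and 10166.1 bp against 9652.5 and 9407.2 bp). At percentile 99 they lie to the left again (20781.5 and 15842.4 bp against 21279.4 and 20245.9 bp). The gap curves cross.

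Close runs of regions were also found on the scaffolds. A run was taken as 3 or more regions with gaps of at most 2000 bp. In replicate 1, 35 of 162 regions (21.6%) lay in 9 runs, and in replicate 2, 25 of 168 (14.9%) lay in 6 runs. On the arms the shares were 26.7% and 26.4%. In the replicate-set list 95 of the 252 (37.7%) lay in 24 runs, against 36.8% on the arms. Of the runs, 3 of the 9 runs of replicate 1 overlapped a run of replicate 2 and 3 of the 6 the other way, while on the arms these shares were 63.3% and 64.8%. The share in runs moved with the longest gap allowed, from 12.5% at 1000 bp to 54.7% at 5000 bp as the mean of the replicates.

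The run with the most regions was on 3LHet at 736890 to 771388, where 8 regions of the replicate-set list covered 91.4% of 34.5 kb with scores from 0.350 to 1.06. Of the 8, 4 overlapped both replicates. A run of 6 at 452810 to 495036 covered 91.6% of 42.2 kb, and 5 of its 6 regions overlapped both replicates. The run with the longest span, 58.6 kb at 671922 to 730480 on 3LHet, had 3 regions. By number of regions, the longest run on 3RHet had 6 in 30.9 kb at 1757676 to 1788614, on 2LHet 5 regions in 23.7 kb at 152442 to 176136, and on XHet 3 regions in 8.59 kb at 117960 to 126548. YHet had no run in any list. Standing apart, with at least 20 kb on either side to the next region of the list, were 7 of the 252 regions. That is 2.78% of them, against 4.42% on the arms. In the replicates the shares were 7.41% and 5.36%, against 5.52% and 5.76%, so no order can be given. Of the 7, 4 overlapped neither replicate, as did 93 (36.9%) of all 252. A set of 7 is too small to compare with that share.

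The share of replicate-set regions found in both replicates was lower on the scaffolds than in the list as a whole, a difference that has no test. Of the 252 regions, 105 (41.7%, Wilson 95% interval 35.7% to 47.8%) overlapped both replicates, where the whole replicate-set list had 65.7%. A further 27 overlapped replicate 1 only, 27 replicate 2 only, and 93 (36.9%) neither, where the whole list had 21.8%. The interval counts regions as if independent, which neighbours on a scaffold are not. Since the replicate-set list describes the same 2 replicates, overlap with them is partly built in. The share in both was 44.2% on 3RHet (23 of 52), 42.9% on YHet (3 of 7), 42.3% on 3LHet (69 of 163), 38.5% on XHet (5 of 13) and 29.4% on 2LHet (5 of 17). The Wilson intervals of these 5 shares overlap one another.

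Between the replicates themselves the agreement was closer. In replicate 1, 127 of 162 scaffold regions (78.4%) overlapped one of replicate 2, where its whole list had 90.1%. In replicate 2, 136 of 168 (81.0%) overlapped one of replicate 1, where its whole list had 91.6%. The replicates shared 574.6 kb on the scaffolds, which is 71.6% of the sequence covered in either, against 85.0% on the arms. Median widths were 1698 bp for the 35 regions of replicate 1 with no partner and 3139 bp for the 127 with one, at median scores of 0.692 and 0.892. In replicate 2 the 32 regions with no partner had medians of 1540 bp and 0.707, while the 136 with one had 2665 bp and 0.866. Regions with no partner were thus narrower and lower in score at the median, and on the arms their median widths were 1553 and 1522 bp. Some had high scores all the same: the highest-scored scaffold regions of replicate 2, all on 3LHet with scores of 3.68, 2.95 and 2.58, had no partner in replicate 1.

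Width went with recurrence on the scaffolds, and the share differed from that of the arms in the middle width class. Overlap was counted from 1 shared bp, which a wider region meets more easily, so the link with width is partly built in. All 55 scaffold regions of 5000 bp or more overlapped both replicates, as did 1470 of 1477 on the arms. From 2000 to under 5000 bp, 49 of 89 (55.1%) did so, against 84.5% of 1639 on the arms. From 1301 to under 2000 bp the count was 1 of 64, against 58 of 710. Of the 44 regions narrower than 1301 bp, 42 (95.5%) overlapped neither replicate, close to the 93.7% of 446 on the arms. No region of either replicate list was narrower than 1301 bp, while the replicate-set list went down to 1001 bp, so regions of that width were not listed on their own in either replicate. Among regions of 1301 bp or more, 50.5% of 208 overlapped both replicates, against 76.1% of 3826 on the arms.

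Over the scaffolds together, scores were lower than on the arms in both replicates. Regions present in both replicates had similar median widths on the scaffolds and the arms (5019 and 5044 bp), with a median score in the replicate-set list of 0.854 against 1.26. Over all regions of the replicates, the median score was 0.829 and 0.832 on the scaffolds, against 1.22 and 1.26 on the arms. YHet, with 1.96 and 1.78, and 2LHet, with 1.46 and 1.39, lay above the arms on 3 to 7 regions a replicate, while 3LHet had 0.820 and 0.822. At matched width the scaffold scores were lower in 3 of 4 width classes. The difference, scaffolds minus arms, was -0.36 ± 0.0385 from 2000 to under 5000 bp, -0.43 ± 0.158 from 5000 to under 10000 bp and -0.25 ± 0.0666 at 10 kb or more (SD, n = 2 each). From 1301 to under 2000 bp it was 0.07 ± 0.0133 (SD, n = 2), with the scaffolds higher. Of scaffold regions scored at or above the median of the replicate-set list, 53 of 82 (64.6%) overlapped both replicates, against 98.4% of 2196 on the arms.

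**Figure D3:**
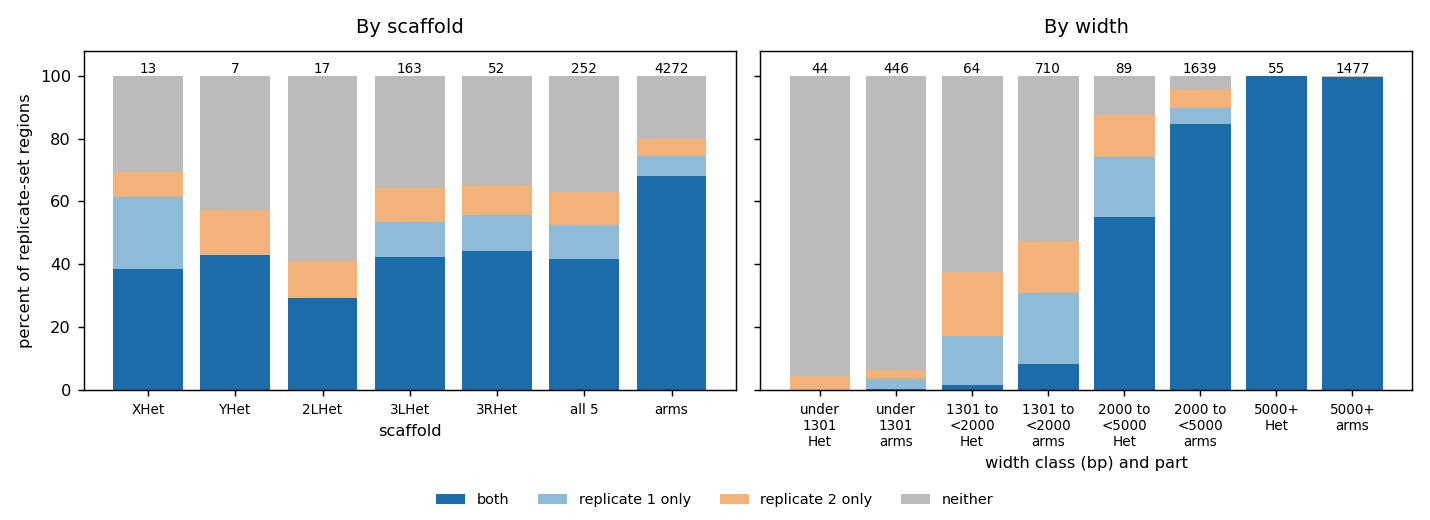
Percent of replicate-set regions (vertical axis) that overlap both replicates, replicate 1 only, replicate 2 only or neither, by scaffold (left) and by width class in bp on the 5 scaffolds (Het) and the arms (right), with the number of regions above each bar. The share in both is 41.7% on the scaffolds together and 68.2% on the arms, and from 2000 to under 5000 bp it is 55.1% against 84.5%.

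Regions that overlapped neither replicate stood farther at the median from those present in both on the scaffolds than on the arms. Regions present in both were also sparser on the scaffolds, with 105 in 5.99 Mb against 2914 in 97.9 Mb on the arms. How far this sparser placing accounts for the distances was not tested. The median distance from such a region to the nearest one present in both was 5695 bp on the scaffolds and 2820 bp on the arms. Within 2000 bp lay 26 of 93 (28.0%), against 42.0% of 862 on the arms, and beyond 20 kb lay 19 (20.4%), against 8.93%.

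Some of the highest scores belonged to regions that the replicates did not hold, most of them narrow. Of the 10 highest-scored of the 252 regions, 5 overlapped both replicates and 5 neither. Over all 252, 93 (36.9%) overlapped neither, so a count of 5 in 10 is not far from that share. Among regions scored at or above the list median, 22 of 82 (26.8%) overlapped neither on the scaffolds, against 28 of 2196 (1.28%) on the arms. On 3LHet the regions at 346990 to 348030 and at 2138498 to 2139508, 1041 and 1011 bp wide, had the same score of 3.14. The one at 509960 to 512372, which was wider at 2413 bp, had 2.73. None of these 3 overlapped a region of either replicate. For 47 of the 252 regions (18.7%) the score recurred, equal to 9 decimals, somewhere in the replicate-set list, and 32 of those 47 (68.1%) overlapped neither replicate. On the arms the score recurred for 439 of 4272 regions (10.3%), and 57.6% of those overlapped neither. Without regions whose score recurs, 50.2% of 205 overlapped both replicates on the scaffolds and 73.9% of 3833 on the arms. The reverse case was a single region of replicate 2, at 2141626 to 2143232 on 3LHet, 1607 bp wide and scored 3.68, that overlapped no region of replicate 1 or of the replicate set.

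Regions of the 2 replicate lists that overlapped each other and nothing else formed 97 pairs on the scaffolds, with similar edges and scores. Their starts differed by a median of 186 bp and their ends by 199 bp, against 116 and 118 bp for 2690 pairs on the arms. Scores had a Spearman correlation of 0.885 and a Pearson correlation of 0.915 across the 97 pairs, against 0.956 for both over the arms. These correlations are across regions of the same 2 libraries, and regions are not replicates. In 82 of the 97 pairs the scores lay within 0.2 of each other. Over all 97, the score was higher in replicate 2 for 52 and lower for 45. The largest rise was at 512935 on 3LHet, from 1.36 in replicate 1 to 2.01 in replicate 2. The largest drop, replicate 2 minus replicate 1, was -0.64 at 1610785 to 1613212 on 3RHet, from 1.56 in replicate 1 to 0.928 in replicate 2.

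**Figure D4:**
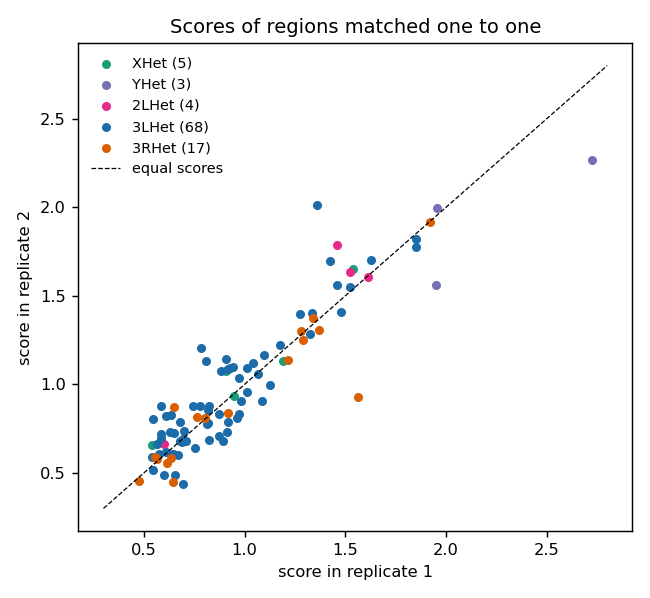
Score of each scaffold region in replicate 1 (horizontal axis) and in replicate 2 (vertical axis), in the authors' score units, for the 97 regions that match one to one; colours mark the scaffold and the dashed line equal scores. Most points lie near the line (82 of 97 within 0.2), and the point with the highest score in replicate 1 is from YHet (2.72 and 2.27).

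The highest-scored regions that both replicates held had nearly the same score in every list on 3RHet, 3LHet and 2LHet. On 3RHet the region at 1704426 to 1712148 scored 1.91 in the replicate set, 1.92 in replicate 1 and 1.92 in replicate 2. On 3LHet the one at 2229424 to 2245176 scored 1.83, 1.85 and 1.82, and on 2LHet the one at 30688 to 41520 scored 1.60, 1.61 and 1.60. On XHet the region at 46796 to 64738 scored 1.28 in the replicate set and lay over 2 regions in each replicate, the higher of which scored 1.54 and 1.65. The YHet region at 327058 to 329258 scored 2.61, 2.72 and 2.27, the highest of all scaffold regions present in both replicates.

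Among the highest-scored that neither replicate held, beside the 3LHet region named above, were 2LHet at 160814 to 162628 and 3RHet at 1718308 to 1719434, which shared a score of 1.41. YHet had one at 304474 to 306432 with a score of 1.73, and XHet one at 120988 to 122144 with 0.817.

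YHet, the scaffold of the mostly heterochromatic Y, had few regions, and 3 of them were evenly spaced. The replicate-set regions at 312382 to 314600, 319804 to 321870 and 327058 to 329258 were 2219, 2067 and 2201 bp wide, with scores of 2.06, 1.70 and 2.61. Their centres stood 7346 and 7321 bp apart. In replicate 1 the distances were 7186.5 and 7351.5 bp and the scores 1.96, 1.95 and 2.72. In replicate 2 they were 7330.5 and 7374 bp, with scores of 2.00, 1.56 and 2.27. All 3 regions were present in both replicates, and they were all that replicate 1 held on YHet. Replicate 2 had 1 more, at 214302 to 216328 with a score of 1.36, where the replicate set had a region at 214302 to 216318 scored 0.914. The other 3 regions of the replicate set, at 225544 to 226568, 304474 to 306432 and 339946 to 341196, overlapped neither replicate and scored 1.56, 1.73 and 1.58.

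XHet began with 3 narrow regions that neither replicate held, at 16664 to 18004, 18382 to 19520 and 26778 to 27866, scored 0.448, 0.642 and 0.592. A pair of broad regions followed, at 46796 to 64738 and 73142 to 91432, scored 1.28 and 1.26, both present in both replicates. Between them stood a region at 68524 to 71048, scored 0.426, that replicate 1 alone shared. From 94512 to 126548 came 6 regions of 2387 to 3473 bp. Their centres were 5458 to 6060 bp apart, with a mean of 5821 ± 231 bp (SD over 5 distances). A narrower region in that span, at 120988 to 122144 and 1157 bp wide, was left out of these distances. The spacing is even only without it. The scores of the 6 were alike, from 0.688 to 0.883.

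The 6 evenly spaced regions of XHet were only partly found again in each replicate. Those at 94512 to 96898, 106038 to 108796 and 123076 to 126548 overlapped both replicates. Those at 100142 to 102786 and 117960 to 120748 overlapped replicate 1 only, and the one at 111652 to 114936 replicate 2 only. In replicate 1, which lacked the one at 111652, neighbouring centres stood 5904.5, 5383, 12244.5 and 5740 bp apart, and in replicate 2 they stood 11908, 6179.5 and 11477 bp apart. A narrow region at 120988 to 122144, 1157 bp wide, stood between the last 2 and overlapped neither replicate. The even spacing on YHet and XHet was noticed in the values and has no test. Repeats and genes under these regions were not analysed here, since no sequence or annotation of release 5 was used.

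**Figure D5:**
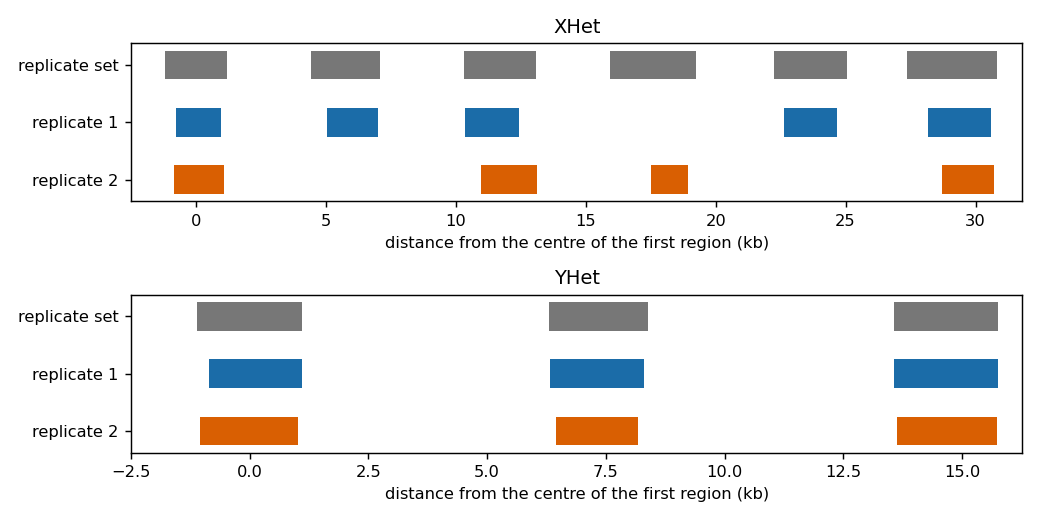
The evenly spaced regions on XHet (top) and YHet (bottom), drawn to scale as bars of their width, with 1 row for each list. The horizontal axis is the distance in kb from the centre of the first replicate-set region. The narrow XHet region at 120988 to 122144 is left out. The YHet regions stand 7346 and 7321 bp apart in the replicate set and recur in both replicates, while replicate 1 lacks 1 of the 6 XHet regions and replicate 2 lacks 2.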

How the data were processed

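Per the labels, chromatin of RNAi-treated S2-DRSC cells was fixed with formaldehyde, sonicated and immunoprecipitated, and samples were grouped by their titles because some descriptions name another kind of DNA. The submitters' processing notes list Bowtie 0.12.7. How regions were called and scored, and whether the inputs entered, is not given in the sources used here. The deposited values are a score per enriched region, made by the authors, with positions on FlyBase release 5 per the file headers. Each ChIP replicate has a list of its own, and 1 more covers the replicate set.

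From the replicate-set list 1 depleted region was left out, and 1 scaffold region in each list that ended past its scaffold was cut at the scaffold's length. Overlap was counted from 1 shared bp. Chromosomes 2R and 2RHet were not used here for comparison. Named regions are, per scaffold, the highest-scored and the widest in both replicates and the highest-scored in neither. Also named are the longest stretch without a region, the longest run and the most covered 50 kb window. Every region of scaffolds with 15 or fewer is named as well. The regions and lists were chosen with earlier results of these data known. All 14 simulated known answers for the overlap, gap and run calculations were recovered. Scripts ran under Python 3.11.15 with pandas 2.3.3, numpy 2.4.6 and scipy 1.17.1, and figures were drawn with matplotlib 3.10.9.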

Additional observations from a re-analysis of the deposited data

How the results depend on the processing

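Of 53 alternative values other than those that leave out a replicate, 26 stayed within the replicate SD, or within the 95% interval where a value has no replicates, and 27 did not. Neither the density nor the cover ratio over full length passed from below 1 to above it under any of them. In the replicate-set list 3 other ratios to the arms did. They were the density outside long stretches (0.971 to 1.18), the share in runs (0.686 to 1.02) and the share of gaps of at most 2000 bp (0.828 to 1.01). From above 1 to below it went the median gap (1.09 to 0.866) and the share standing apart (1.14 to 0.628). So did the share of regions of 10 kb or more (1.33 to 0.924). The replicate-set list in place of the replicates gave a density ratio to the arms of 0.963, a cover ratio of 0.776 (0.625 as the replicates' mean), a median gap of 2629 bp and a share in runs of 37.7%. Regions from the median score of their list upwards gave a density ratio of 0.346 and a cover ratio of 0.380. Their median width was 5415 bp and their median gap 34689.5 bp, and 3.85% lay in runs. The replicate overlap was 76.3% (79.7% before). With every list cut in this way, 35.4% of the replicate-set regions overlapped both replicates. Against the uncut replicate lists 64.6% of them did (53 of 82). Against the 0.2 of each arm next to its centromere the ratios were 0.596 for density and 0.488 for cover. Density ratios were 0.725 without XHet, 0.772 without YHet, 0.763 without 2LHet, 0.436 without 3LHet and 0.998 without 3RHet. Cover ratios were 0.656 without YHet, 0.357 without 3LHet and 0.846 without 3RHet. Runs held 12.5% with gaps up to 1000 bp and 54.7% up to 5000 bp. A reciprocal overlap of 50% left 30.2% in both replicates and a replicate overlap of 63.7%. The share in both was 50.5% at 1301 bp or more, and 50.2% without recurring scores, an alternative chosen after seeing the data. What caused these shifts was not tested.

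Leaving out each replicate gave 0.733 to 0.753 for the density ratio, 0.610 to 0.639 for the cover ratio, 2202 to 2590 bp for width, 3953 to 4777 bp for the gap and 14.9% to 21.6% for runs; with 2 replicates these ranges are the replicates themselves. No paired analysis was possible because ChIP and input share replicate numbers but no list of input values was analysed here. Depth is unknown, so a weak region missing from a list cannot be read as absent.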
